A study of Mus musculus with 18 samples.

Results

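*Tnfaip2* was followed across 18 Affymetrix mouse expression arrays by every probe set that carries its symbol alone. It is 1 of 18193 genes and has 3 of the 34945 probe sets with exactly 1 symbol. The gene was chosen on values of these same arrays, because its signal rises with both ligands in wild-type cells and is already high in the untreated mutant line. The differences behind that choice are therefore given as a description, without a test. The arrays come from a study of the aryl hydrocarbon receptor (AHR) in mouse hepatoma cells, with 6 groups of 3 biological replicates. Wild-type cells were of the mouse hepatoma line Hepa-1c1c7. The mutant line, c35, is 1 derivative of it, in which a missense mutation leaves the AHR able to bind ligand and reach the nucleus but unable to bind DNA. Each line received the solvent dimethyl sulfoxide (DMSO) alone, the dioxin TCDD in DMSO, or benzo[*a*]pyrene (BaP), a polycyclic aromatic hydrocarbon, in DMSO, and RNA was taken after 8 hr. BaP was given at 5 µM in both lines, and TCDD at 5 nM in c35 cells. The labels of the wild-type TCDD arrays carry no dose, and the study's methods give the same concentration for all cells. Cells with DMSO alone are called naive.

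TNFAIP2, also known as M-Sec or B94, was found as a protein induced by tumor necrosis factor (TNF) in endothelial cells. It resembles SEC6, a subunit of the exocyst, the complex that tethers secretory vesicles to the plasma membrane. It takes part with the small GTPase RALA in forming tunneling nanotubes, thin membrane bridges between cells, and its gene is also induced by retinoic acid. Once a ligand is bound, the AHR enters the nucleus, pairs with ARNT and binds DNA carrying the core letters GCGTG. TCDD and BaP are both AHR ligands, and cytochrome P450 genes such as *Cyp1a1* are the classic targets.

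The 250 bases before the RefSeq start site of *Tnfaip2* (GRCm38.p6, chr12:111442411-111442660, plus strand) are shown because the ligands act through a receptor with a known core motif. The capitals mark the only match to GCGTG on either strand. It reads CACGC here because it lies on the minus strand, at position -207 relative to the start site.
Tnfaip2 promoter: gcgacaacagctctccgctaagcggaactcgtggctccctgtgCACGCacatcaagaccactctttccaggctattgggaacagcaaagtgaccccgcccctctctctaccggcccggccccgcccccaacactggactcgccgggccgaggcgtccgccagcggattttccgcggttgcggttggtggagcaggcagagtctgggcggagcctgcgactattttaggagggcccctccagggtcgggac
Another RefSeq transcript model begins inside this window. One match or more was present in 28.2% of 32851 RefSeq promoters of the same length and in 42.5% of those of 14452 measured genes. The match is a description of the letters, not a binding site.

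The signals are log2 values after robust multiarray averaging, and levels are compared only within a probe set. Arrays of the same line correlated at r = 0.991 to 0.998 and arrays of different lines at r = 0.969 to 0.980. The median signal of an array lay between 5.62 and 5.69. A measure of RNA degradation, the gap between the 3′ and 5′ *Actb* controls, ran from 0.73 to 1.38 on the 9 wild-type arrays and from 0.30 to 0.53 on the 9 c35 arrays, so it moved with the line. By their means over all arrays, 9 of 10 measured hepatocyte or hepatoma markers lay above the median of probe sets. *Alb*, the serum albumin gene, was lower in naive c35 cells by a log2 difference of -2.46. The *Ahr* signal cannot check the mutant label, because the mutation changes 1 residue of the protein.

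The probe set of highest mean, 1438855_x_at, is taken as the main one. The suffix "_x_at" marks probes that may also match other transcripts. On it, naive wild-type cells read 7.10, 7.00 and 6.93 in replicates 1 to 3. With TCDD, wild-type cells read 8.94, 8.93 and 8.82. With BaP they read 9.52, 9.42 and 9.44. The 3 wild-type groups did not overlap, with DMSO lowest and BaP highest. In c35 cells the DMSO arrays read 9.62, 9.67 and 9.34. The c35 TCDD arrays read 9.14, 9.23 and 9.26. The c35 BaP arrays read 9.20, 9.27 and 9.54. All 9 c35 arrays, whatever the treatment, lay above all 6 wild-type arrays with DMSO or TCDD, and within or near the range of wild-type cells with BaP.

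The second probe set, 1416273_at, gave the same picture at its own scale. Naive wild-type cells read 6.45, 6.39 and 6.31, those with TCDD 7.65, 7.56 and 7.74, and those with BaP 8.19, 8.10 and 8.04. The c35 arrays read 8.42, 8.45 and 7.99 with DMSO, 8.09, 8.05 and 8.19 with TCDD, and 8.10, 8.14 and 8.44 with BaP. The wild-type groups were again apart, and the c35 groups overlapped each other, whereas on the main probe set the c35 TCDD arrays lay below the c35 DMSO arrays. Over the 18 arrays the first and second probe sets correlated at r = 0.99, with r = 0.99 within the 9 wild-type arrays and r = 0.87 within the 9 c35 arrays. The third probe set, 1457918_at, stayed between 5.18 and 5.50 on all 18 arrays, near the median of all probe sets, and carried little of this variation (r = 0.53 with the first).

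**Figure D1:**
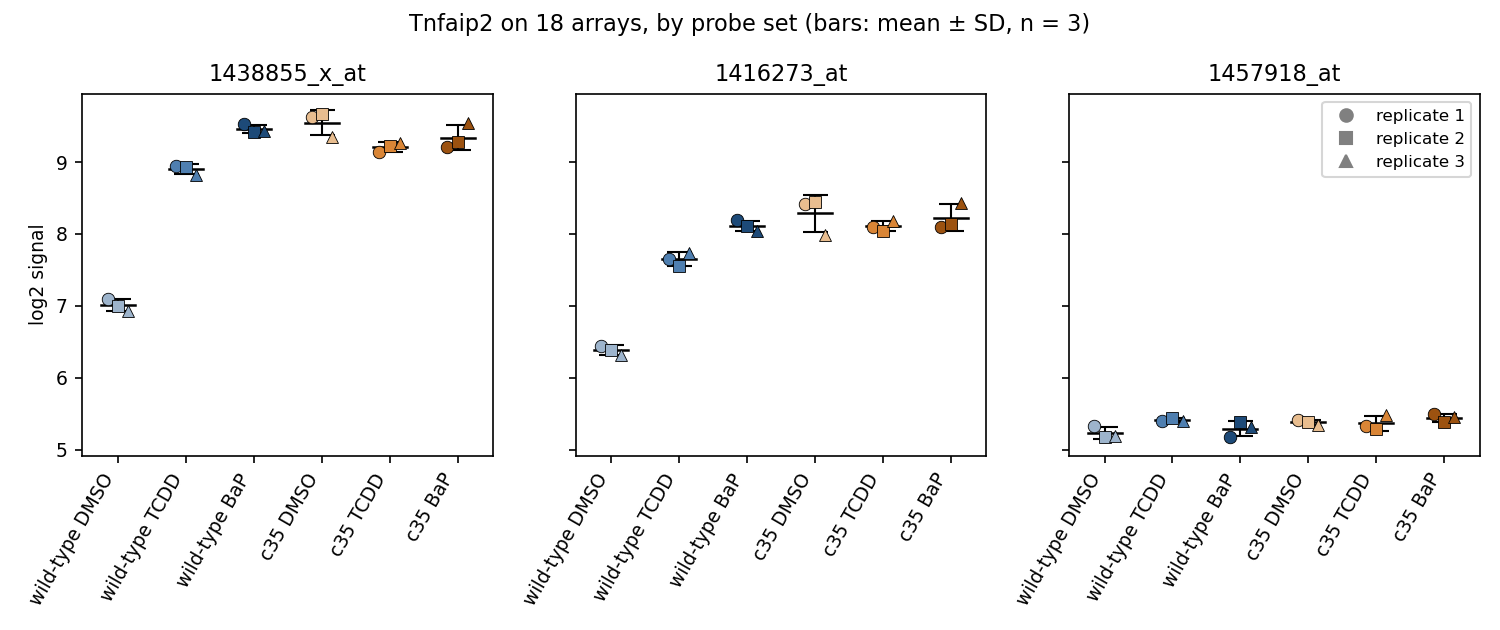
Log2 signal of the 3 *Tnfaip2* probe sets (panels) on the 18 arrays, by group on the x axis, with bars for mean ± SD of n = 3 and a symbol for each replicate number. In the first panel the wild-type groups step up from 7.01 to 8.90 and 9.46, while the 3 c35 groups lie between 9.21 and 9.55, and the third panel is nearly flat.

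The group means on the main probe set rose in the order wild-type DMSO (7.01 ± 0.09, SD, n = 3), wild-type TCDD (8.90 ± 0.07), c35 TCDD (9.21 ± 0.06), c35 BaP (9.34 ± 0.18), wild-type BaP (9.46 ± 0.06) and c35 DMSO (9.55 ± 0.18). The arrays of the first 3 groups in this order did not overlap, and from c35 TCDD on each group overlapped the next. On the second probe set wild-type BaP came before c35 BaP. The 9 c35 arrays spanned 0.54 in all, against 2.59 for the 9 wild-type arrays.

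The comparisons that chose the gene were large on the first and second probe sets. In wild-type cells TCDD raised the main probe set by a log2 difference of 1.89, which is 3.70-fold, and the second by 1.27. BaP raised them by 2.45, which is 5.46-fold, and by 1.73. Naive c35 cells exceeded naive wild-type cells by 2.54, which is 5.80-fold, and by 1.90. On the third probe set the same differences were 0.18, 0.06 and 0.15. These 3 comparisons share the naive wild-type arrays. In bulk RNA, more cells carrying a transcript and more transcript per cell cannot be told apart. With the *Actb* gap entered in the fit, the naive difference between the lines was 2.69. The gap did not overlap between the lines, so this fit cannot tell RNA degradation and line apart.

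The other comparisons were tested in the fit over all 45037 probe sets. In wild-type cells *Tnfaip2* was higher with BaP than with TCDD, by 0.56 on the log2 scale (1.48-fold, SE 0.09, 95% CI 0.37 to 0.75, limma adjusted p = 0.0032). The second probe set gave 0.46 (adjusted p = 0.0403 in limma). Every BaP array lay above every TCDD array, as for 11.3% of genes, and the exact permutation test over the arrays gave p = 0.1, the smallest that 3 against 3 allows. The change stayed under the 1.5-fold minimum, so the gene is not among the 47 genes (0.258%) called in this comparison. The concentrations of the ligands differ, so the difference is between these treatments as given. The test uses the wild-type ligand arrays on which the gene was chosen. That choice asked for a rise with both ligands, not for a difference between them.

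In c35 cells neither ligand raised *Tnfaip2*. The gene was chosen for a high signal in naive c35 cells, and that choice favors lower values with ligand against these same arrays, so the differences from c35 DMSO are no independent evidence of a fall. With TCDD the main probe set was lower than with DMSO by -0.34 (SE 0.09, 95% CI -0.53 to -0.15), and the arrays did not overlap, as for 12.3% of genes in either direction and 6.53% in this one. The limma adjusted p was 0.962. With BaP the difference was -0.21 (95% CI -0.40 to -0.02, limma adjusted p = 0.9998), with overlapping arrays. Both ligands together gave -0.27 against DMSO (limma adjusted p = 0.93). On the second probe set these differences were -0.18, -0.06 and -0.12. No probe set passed an adjusted p below 0.1 in limma for either ligand in c35 cells, while 2244 of 45037 (4.98%) for TCDD and 1827 (4.06%) for BaP had an unadjusted p below 0.05.

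BaP and TCDD differed by 0.13 in c35 cells (95% CI -0.06 to 0.32, limma adjusted p = 0.9998). The BaP minus TCDD difference was larger in wild-type cells than in c35 cells by 0.43 (SE 0.13, 95% CI 0.16 to 0.70). Its limma p was 0.00318 before adjustment and 0.285 after, so a difference between the lines was not established over the whole array. In that test 17 genes (0.0934%) were called. It too uses the wild-type ligand arrays on which *Tnfaip2* was chosen.

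With ligand present the gap between the lines was small. Under TCDD c35 cells exceeded wild-type cells by 0.31 (1.24-fold, 95% CI 0.12 to 0.50, limma adjusted p = 0.0104) on the main probe set and by 0.46 (adjusted p = 0.00197 in limma) on the second. The arrays did not overlap, as for 51.4% of genes. Without wild-type TCDD replicate 3 the main value was 0.27 with a limma adjusted p of 0.0511. Under BaP the main probe set gave -0.12 (95% CI -0.31 to 0.07, limma adjusted p = 0.345) and the second 0.11 (limma adjusted p = 0.477), so no direction can be given. These tests use the wild-type ligand arrays on which the gene was chosen, and that choice favors high signals there. Neither value was called, and 6.32% of genes were called higher in c35 cells under TCDD and 6.83% under BaP.

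**Figure D2:**
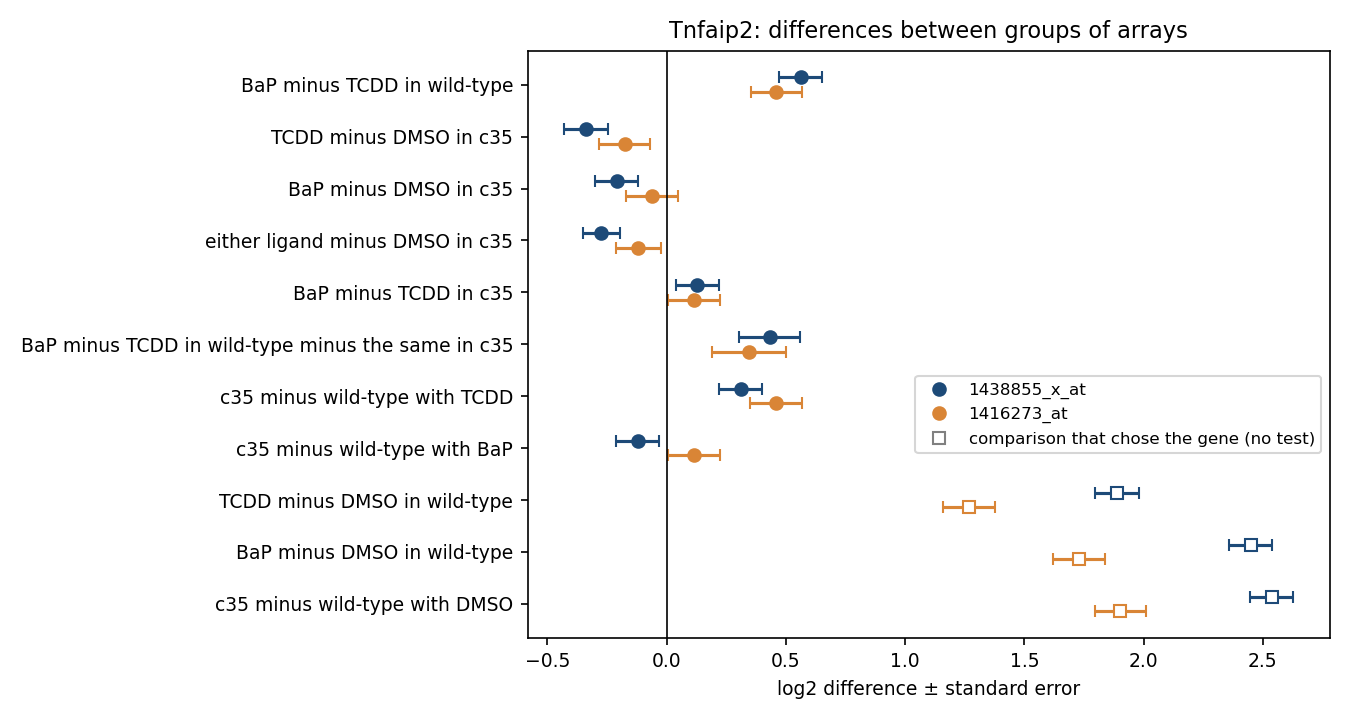
Log2 differences of *Tnfaip2* (x axis) ± standard error from the limma fit for the first and second probe sets, with filled circles for comparisons tested and open squares for those that chose the gene. The open squares lie between 1.27 and 2.54, and every filled circle lies between -0.34 and 0.56.

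Within c35 cells the arrays of highest *Tnfaip2* came from more than 1 treatment. The 3 c35 arrays with the highest *Cyp1a1* signal were DMSO replicates 1 and 2 and BaP replicate 3, at 8.32, 8.34 and 8.32, while the other 6 lay between 4.87 and 6.23. This set was picked after the values were seen. *Tiparp*, an AHR target whose product represses the receptor, read 10.36, 10.30 and 10.42 on these 3 arrays and at most 9.38 on the rest. *Tnfaip2* was highest on the same arrays, at 9.62, 9.67 and 9.54, against 9.14 to 9.34 on the other 6. *Xdh* and *Nfkbiz* separated in the same way and *Nqo1* did not. Of 18193 genes, 533 (2.93%) had these 3 arrays above the other 6, as had 5 of 9 other expression genes named in the paper, leaving out *Cyp1a1*, which defined the arrays.

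With these 3 arrays left out, 1 c35 DMSO array remains, assumed to vary like the other groups. The TCDD difference in c35 cells then shrank to -0.14 and the BaP difference to -0.11 (limma adjusted p of at least 0.9999 for each), and the naive difference between the lines was 2.33. The difference between the lines under BaP became -0.22 with a limma adjusted p of 0.0431, still under 1.5-fold. What sets these arrays apart was not tested.

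**Figure D3:**
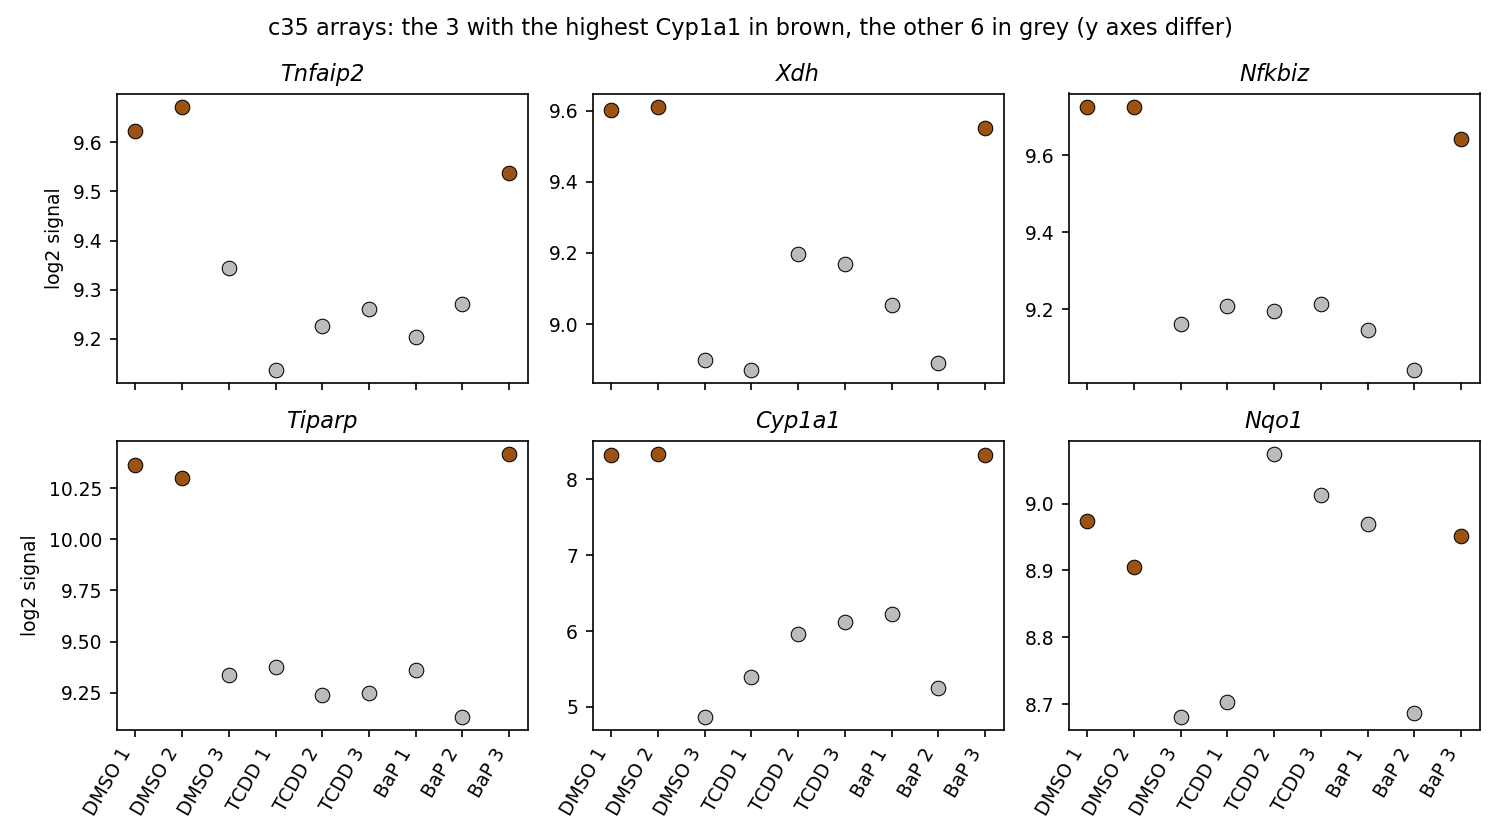
Log2 signal of 6 genes on the 9 c35 arrays, with the 3 arrays of highest *Cyp1a1* in brown and the other 6 in grey (the y axes differ between panels and do not start at 0). The brown points are the highest in every panel but *Nqo1*, and for *Tnfaip2* they lie between 9.54 and 9.67 against 9.14 to 9.34.

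The pattern for which *Tnfaip2* was chosen was uncommon among all genes. In wild-type cells 62 genes (0.341%) were called higher with TCDD and 161 (0.885%) with BaP, and 54 with both. Naive c35 cells had 1186 genes (6.52%) called higher than naive wild-type cells and 1369 (7.52%) called lower. All 3 criteria were met by 15 genes, 0.0824% of those measured. They were 15 of the 54 that rose with both ligands, beside the 6.52% of all genes called higher in naive c35 cells. Ordered by the smallest of their 3 log2 differences, *Tnfaip2* came first at 1.89, an order made of the values on which it was chosen. The others were *Hpgd*, *Xdh*, *Aldh3a1*, *Tiparp*, *Adh7*, *Sprr1b*, *Entpd2*, *Chac1*, *Ndrg1*, *Gsdmd*, *Rnf39*, *Cpox*, *Maff* and *Tpmt*. The 3 comparisons share the naive wild-type arrays, so low signals there favor all 3 at once. The count was 13 without the 3 c35 arrays above and 32 without wild-type DMSO replicate 2.

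*Hpgd*, whose product inactivates prostaglandins, rose by 1.37 with TCDD and 1.53 with BaP in wild-type cells and was 2.91 higher in naive c35 cells. *Xdh*, the xanthine dehydrogenase gene, gave 1.25, 1.83 and 1.54 in the same order. *Aldh3a1*, an aldehyde dehydrogenase gene and classic AHR target, gave 1.41, 2.13 and 1.05. *Chac1*, which encodes a glutathione-degrading enzyme, showed the smaller ligand rises, 0.68 and 0.99, and the larger line difference, 3.11. *Tiparp* was the reverse, at 2.44, 2.61 and 0.98, and its line difference fell to 0.31 (limma adjusted p = 0.0267) without the 3 c35 arrays.

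Under ligand these 15 genes parted. With TCDD, where 6.32% of all genes were called higher and 8.65% lower, 5 of them were called higher in c35 than in wild-type cells (*Hpgd*, *Sprr1b*, *Entpd2*, *Chac1* and *Ndrg1*), 2 were called lower (*Tiparp* and *Adh7*), and 8, *Tnfaip2* among them, were not called. With BaP, against 6.83% and 8.98% of all genes, 4 were higher, 4 were lower and 7, again with *Tnfaip2*, were not called. *Chac1* stayed 2.37 higher in c35 cells under TCDD, and *Tiparp* was lower there by -2.17. Beside the 0.31 and -0.12 of *Tnfaip2*, *Xdh* gave line differences of 0.00 under TCDD and -0.49 under BaP, and *Maff*, the gene of a small MAF transcription factor, gave 0.17 and 0.06. Of the 11 pattern genes with a sequence in the promoter table, 9 held at least 1 match to GCGTG, against the share of 42.5% among measured genes. Among the genes most like *Tnfaip2*, described next, it was 4 of 7, and among the genes the paper names 3 of 8.

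The genes most like *Tnfaip2* were ranked by Pearson's r with its main probe set over the 18 arrays, among 1382 named genes whose group means spanned at least 1 on the log2 scale. The arrays form 6 groups in 2 lines, so r mostly follows the group means, and no p is given. *Xdh* was first (r = 0.94), followed by *Entpd2*, an ectonucleotidase gene (0.90), and *Jun*, a subunit of the AP-1 transcription factor (0.87). Then came *Socs3*, a feedback inhibitor of cytokine signaling (0.85), *Nfkbiz*, a nuclear IκB protein gene (0.83), the stress-induced phosphatase regulator *Ppp1r15a* (0.83) and *Ndrg1* (0.83). *Hpgd* (0.82), the sugar transporter gene *Slc2a6* (0.81) and the spermine oxidase gene *Smox* (0.79) completed the 10. The eleventh had r = 0.78 and the median over all 1382 genes was -0.29.

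All 10 were called higher in naive c35 cells and higher with BaP in wild-type cells, and 4 of them (*Xdh*, *Entpd2*, *Ndrg1* and *Hpgd*) also with TCDD. Among all genes the shares were 6.52%, 0.885% and 0.341%. The ranking was made on these same arrays, so the calls largely follow from it and are no independent evidence. The BaP call of *Smox* was lost without wild-type BaP replicate 1 or DMSO replicate 2 (0.57 in each case). For *Jun* the TCDD difference was 0.46 and the BaP difference 0.76, and for *Ppp1r15a* they were 0.30 and 0.73. *Nfkbiz* read 0.35 and 0.78. Likeness within the lines differed by gene. Within the 9 wild-type arrays r lay between 0.89 (*Nfkbiz*) and 0.99 (*Xdh*), and within the 9 c35 arrays between -0.59 (*Hpgd*) and 0.92 (*Nfkbiz*). In 7 of the 10 the 3 c35 arrays of highest *Cyp1a1* stood above the others, against 2.93% of all genes, the exceptions being *Socs3*, *Hpgd* and *Smox*. *Tnfaip2* itself was highest on these arrays and the ranking used them, so this count is no independent evidence either. With the second probe set as reference, 9 of the 10 remained.

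**Figure D4:**
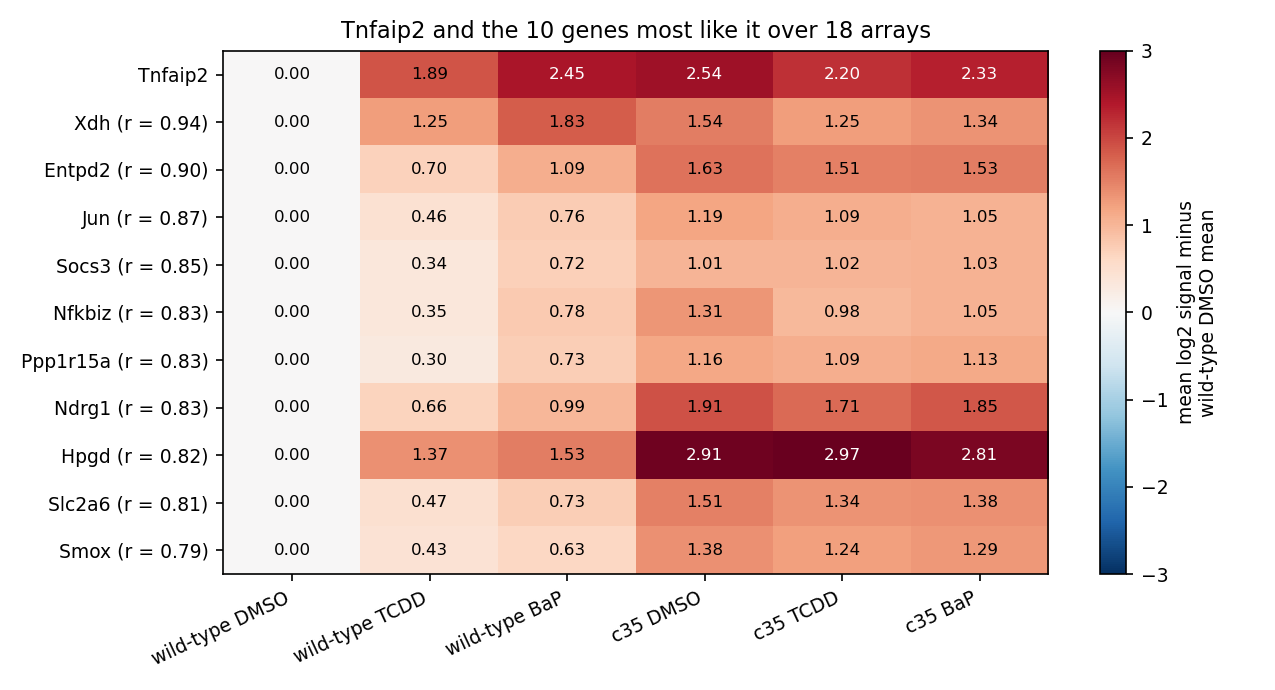
Mean log2 signal of *Tnfaip2* and of the 10 genes most like it (rows, with Pearson's r over 18 arrays) in each group (columns), minus the gene's own wild-type DMSO mean, with darker red for higher values. *Tnfaip2* reads 1.89 and 2.45 with the ligands in wild-type cells and 2.20 to 2.54 in c35 cells, while in most rows the c35 columns exceed the wild-type ligand columns.

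*Tnfaip2* is a target of NF-κB, the transcription factor that TNF activates, so the other TNF-induced NF-κB targets were read beside it. Of 28 measured, 14 were higher in naive c35 than in naive wild-type cells and 1 was lower, against 6.52% and 7.52% of all genes, with a median difference of 0.53 against 0.03 over all genes. The chemokine gene *Ccl7* rose most, from 5.84 ± 0.09 to 10.92 ± 0.06 (SD, n = 3), a difference of 5.08. Next came *Ccl2* (1.74), the interleukin gene *Il6* (1.55), the acute-phase gene *Saa3* (1.46) and the macrophage growth factor gene *Csf1* (1.44). The nuclear IκB protein gene *Nfkbiz* (1.31) was higher too, as were the feedback inhibitors *Nfkbib* (1.12), *Nfkbia* (1.12), *Nfkbie* (0.99) and *Tnfaip3* (0.91). The exception was *Lcn2*, an iron-carrier lipocalin gene, which was lower by -2.89, from 9.77 ± 0.44 to 6.88 ± 0.06. Each limma adjusted p of the genes named here was at most 3.46e-07 except that of *Il6*, 1.89e-06. Without the 3 c35 arrays the counts were again 14 and 1.

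With TCDD in wild-type cells none of the 28 was called. Since 0.341% of all genes were called higher there, nothing is read from that count. With BaP 3 of the 28 were called higher, against 0.885% of all genes, *Nfkbiz* (0.78), *Cxcl10* (0.71) and *Ccl20* (0.62), the last being chemokine genes. The list medians were 0.08 and 0.07. Between the lines under ligand, 13 were higher and 1 lower with TCDD, and 10 were higher and 2 lower with BaP, against 6.32% and 8.65% of all genes with TCDD and 6.83% and 8.98% with BaP. *Ccl7* stayed 4.96 and 5.08 higher in c35 cells. In 6 of the 28 the 3 c35 arrays of highest *Cyp1a1* stood above the other 6, against 2.93% of all genes. Those arrays were picked after the values were seen.

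**Figure D5:**
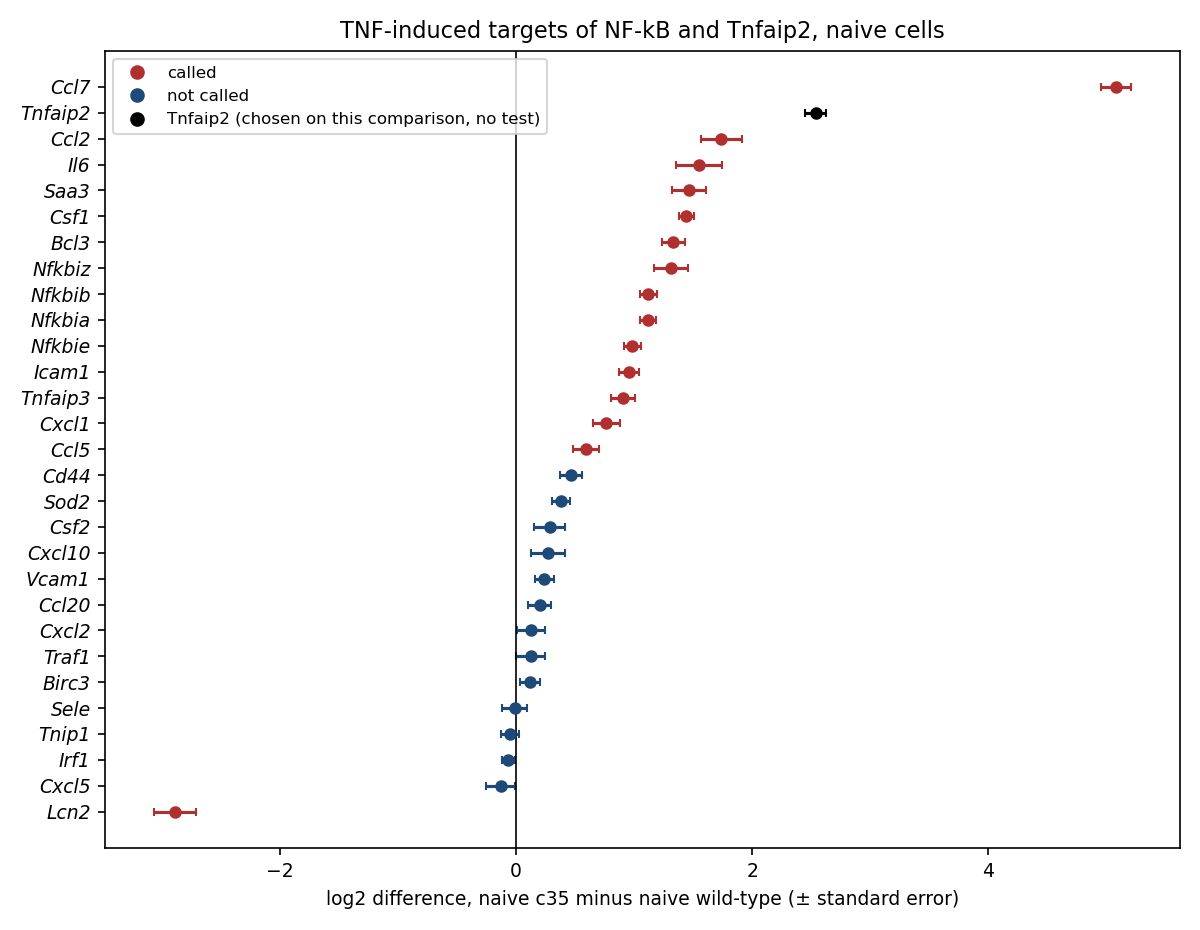
Log2 difference between naive c35 and naive wild-type cells (x axis) ± standard error from the limma fit, for 28 NF-κB targets and *Tnfaip2*, with red points for genes called and a black point for *Tnfaip2*. *Ccl7* lies at 5.08, *Lcn2* at -2.89 and most called genes between 0.60 and 1.74.

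The signaling side of the pathway was read from its own list. Of 16 measured genes for TNF, its receptors and the NF-κB machinery, 4 were higher in naive c35 cells and none was lower, against 6.52% and 7.52% of all genes. These were the NF-κB subunit genes *Relb* (1.09), *Nfkb2* (1.02) and *Rela* (0.84) and the kinase gene *Map3k7* (0.91). None of the 16 was called with either ligand in wild-type cells, where 0.341% of all genes were called higher with TCDD and 0.885% with BaP. Of 6 genes named like *Tnfaip2* as TNF-induced proteins, *Tnfaip3* alone was called between the naive lines, and none was called with a ligand. At such shares nothing is read from the ligand counts of either list. *Tnfaip1* (-0.28, limma adjusted p = 0.000534) and *Tnfaip6* (-0.27, limma adjusted p = 0.034) were lower in naive c35 cells by less than 1.5-fold.

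The lists of TNFAIP2 partners held no call with a ligand in wild-type cells, beside shares of 0.341% with TCDD and 0.885% with BaP called higher among all genes, so nothing is read from these counts. Of 12 exocyst genes and relatives, *Exoc6b* was higher in naive c35 cells by 0.77 and *Exoc2* lower by -0.63. Of 16 Ral GTPases, regulators and nanotube partners, *Rala* was higher by 0.74 and *Rgl3*, a Ral activator gene, lower by -0.88, and both lists lay near the 6.52% and 7.52% of all genes called in these directions. The *Rala* direction depended on the probe set, since the mean over all its probe sets was -0.15. Of 18 retinoic acid receptors and response genes, the receptor gene *Rara* was higher by 0.73, while *Nrip1* (-1.30), *Tgm2* (-0.72) and *Meis1* (-0.67) were lower, and none was called with a ligand. The count of lower genes was 5 without wild-type DMSO replicate 2, and *Meis1* was not called when wild-type DMSO replicate 1 (-0.58) or c35 DMSO replicate 3 (-0.51) was left out.

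*Tnfaip2* is also known from myeloid and endothelial cells. Of 8 myeloid markers, 3 were higher in naive c35 cells (against 6.52% of all genes), *Cd68* by 1.39, *Csf1r* by 1.25 and *Cd14* by 0.73, and the log2 of their summed signal was 12.49 to 12.54 there against 11.40 to 11.45 in naive wild-type cells. The leukocyte marker *Ptprc* read 2.93 and 2.85, and *Itgam* 3.51 and 3.54, in the naive wild-type and c35 groups, all well under the array medians. None of 7 endothelial markers was called between the naive lines. Since 6.52% of all genes were called higher and 7.52% lower there, nothing is read from that count. By its mean over all arrays, 1 of the 7 lay above the median of probe sets. Of 7 fibroblast or stellate markers, *Acta2* (2.15) and *Col3a1* (1.29) were higher and *Pdgfra* (-1.59) and *Pdgfrb* (-1.20) lower, against the same shares. The log2 of the summed signal of all 7 was 13.38 to 13.54 in naive c35 cells against 12.70 to 12.89 in naive wild-type cells. The part of these markers in the *Tnfaip2* difference was not tested.

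Among the 5 nearest measured genes on each side of *Tnfaip2* on chromosome 12, in the gene order of GRCm38.p6, none was called with a ligand in wild-type cells. Since 0.341% of all genes were called higher there with TCDD and 0.885% with BaP, nothing is read from that count. In naive c35 cells 4 of the 10 were higher, against 6.52% of all genes. These were *Eif5*, a translation initiation factor gene (1.44), the kinase genes *Mark3* (0.97) and *Cdc42bpb* (0.79), and *Amn* (0.87). *Exoc3l4*, a relative of *Tnfaip2* and the next gene on one side, differed by 0.13 between the naive lines (limma adjusted p = 0.395). All 4 were also called higher in c35 cells under TCDD, and 4 of the 10 under BaP, against 6.32% and 6.83% of all genes.

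*Tnfaip2* was then set beside the genes that the paper names from these arrays. These genes were chosen by the study on the same arrays, so their calls are not independent evidence. Of a list of 10 others, 9 were called higher and *Vegfc* lower with each ligand in wild-type cells. Among all genes there, 0.341% were called higher and 0.0385% lower with TCDD, and 0.885% higher and 0.434% lower with BaP. *Vegfc* read -0.59 with TCDD, just past the minimum change, and was not called when wild-type DMSO replicate 1 (-0.58), DMSO replicate 3 (-0.58) or TCDD replicate 3 (-0.51) was left out. The TCDD rise of *Cyp1a1*, 3.28, missed the adjusted p of 0.05 in limma without wild-type DMSO replicate 1 or any 1 TCDD array (3.22 to 3.33), and that of *Cyp1b1* without wild-type DMSO replicate 2 or 3 or any 1 TCDD array (0.93 to 1.07). With BaP *Cyp1b1* missed it without wild-type BaP replicate 1 (0.85). The standard errors behind these p-values pool the spread of all groups, not only that of the wild-type arrays. For *Cyp1a1* the SD was 0.05 to 0.11 in the wild-type groups and 0.38 to 2.00 in the c35 groups. For *Cyp1b1* the SD was 0.14 to 0.19 in the wild-type groups and 0.28 to 0.56 in the c35 groups. The paper also names *Adh1* and *Mgst2*, which were not on the list. *Adh1*, an alcohol dehydrogenase gene, gave 0.70 with TCDD (called) and 0.44 with BaP, and *Mgst2*, a microsomal glutathione transferase gene, gave 0.62 and 0.79 (called with BaP). Both were lower in naive c35 cells, by -0.96 and -0.82. Between the naive lines 4 of the 10 were higher, 3 were lower and 3 were not called, against 6.52% higher and 7.52% lower among all genes. *Cyp1a1* stood at -2.56 and *Cyp1b1*, another cytochrome P450 gene, at -0.86 (-0.54 and not called without c35 DMSO replicate 3). Without the 3 c35 arrays the count of higher genes was 2, with *Adh7* (0.48) and *Tiparp* no longer called. Under ligand none of the 10 was higher in c35 cells, 7 were lower with TCDD and 8 with BaP. Among all genes 6.32% were higher and 8.65% lower with TCDD, and 6.83% higher and 8.98% lower with BaP. The line differences of *Cyp1a1* were -7.19 and -6.83, where those of *Tnfaip2* were 0.31 and -0.12.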

How the data were processed

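The authors deposited log2 signals of 45101 probe sets per array, made by robust multiarray averaging (RMA) per the submitters' processing notes, with a version not given in the sources used here. They were used as deposited, without 64 Affymetrix controls. The limma package (3.58.1, R 4.3.3), which the study's methods name, fitted 1 mean per group over the 18 arrays with an intensity trend, and its two-sided p-values were Benjamini-Hochberg adjusted over 45037 probe sets. A call needed a change of more than 1.5-fold together with an adjusted p below 0.05. In c35 cells under ligand it needed an adjusted p below 0.1 alone. Single comparisons also had a two-sided exact permutation test over arrays. A gene was read by its probe set of highest mean, and 932 probe sets with several symbols and 9160 with none named no gene.

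The gene, the lists and the rules were chosen with earlier results of these data known. Named were *Tnfaip2*, the 10 genes most like it, the genes of its pattern, called members of each list with the largest changes (up to 4, and more of the NF-κB targets, chosen after their values were seen), neighbors and the paper's genes. *Maff*, *Tnfaip1*, *Tnfaip6*, *Adh1* and *Mgst2* were added after their values were seen. Promoters came from RefSeq. The alternatives were no intensity trend, quantile normalization, median centring, a filter on low signals, array weights, only the groups compared, the replicate number as a block, the *Actb* covariate, other probe sets, no minimum change and each array left out. Leaving out 3 c35 arrays together, and the alternatives for lists and likeness, were added after seeing the data. The fit was tested on simulated data. No 2 arrays held identical values, and precision is limited by how few arrays each group had. The ChIP/chip and PCR data were not analysed here. Figures were drawn with matplotlib 3.10.9.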

Additional observations from a re-analysis of the deposited data

Results flagged for a closer look

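On the main probe set of *Tnfaip2*, TCDD and DMSO were ordered oppositely in the lines: all 3 wild-type TCDD arrays lay above all 3 wild-type DMSO arrays, and all 3 c35 TCDD arrays lay below all 3 c35 DMSO arrays. The difference in c35 cells was -0.34 on the log2 scale (limma adjusted p = 0.962). The difference between the lines was not tested, because the gene was chosen on its wild-type response and on its high signal in naive c35 cells, which favors a negative difference there. On the second probe set the c35 arrays overlapped, with a difference of -0.18. Of all genes, 6.53% were lower with TCDD in c35 cells without overlap between the arrays. Without the 3 c35 arrays of highest *Cyp1a1*, which include DMSO replicates 1 and 2, the value was -0.14.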

How the results depend on the processing

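On the main probe set, the *Tnfaip2* comparisons kept their direction under every alternative run except that between the lines under BaP, which was 0.0263 with the *Actb* covariate. The second probe set gave 0.11 there, and 1.27, 1.73 and 1.90 for TCDD, BaP and the naive lines. The third, near the median of all probe sets, gave 0.18, 0.0633 and 0.15 for these. It went the other way for BaP minus TCDD in wild-type cells (-0.12), and for BaP (0.0675) and either ligand (0.0276) in c35 cells. It also did so for BaP minus TCDD between the lines (-0.20), and for the lines under TCDD (-0.0453) and BaP (0.15). The naive difference between the lines was 2.69 with the covariate and 2.33 without the 3 c35 arrays of highest *Cyp1a1*. The *Actb* gap did not overlap between the lines, so the covariate cannot tell RNA degradation and line apart. The count of genes with the pattern of *Tnfaip2* was 54 with no minimum change, and 11 to 32 with 1 array left out. The mean of all *Rala* probe sets gave -0.15. The cause of these changes was not tested. Leaving out 1 array gave 0.52 to 0.58 for BaP minus TCDD in wild-type cells, -0.44 to -0.28 for TCDD in c35 cells, and 2.47 to 2.64 for the naive lines. Of 2490 further values of named genes under alternatives, 2437 kept direction and call, and of 1176 list counts 1159 stayed within 1.5-fold.

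The deviations of arrays with the same replicate number correlated at r from -0.26 to 0.22 (45 pairs, mean 0.017). Those of other arrays correlated at r from -0.21 to 0.21 (90 pairs, mean -0.008). These values cannot tell whether arrays of the same number were prepared together. With the replicate number as a block the differences were the same, for example 0.56 for BaP minus TCDD in wild-type cells (limma adjusted p = 0.00652) and 0.31 for the lines under TCDD (limma adjusted p = 0.0149), and no *Tnfaip2* call changed.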
